A study of Mus musculus with 12 samples.

Results

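The genes described here belong to the axis in which phosphoinositide 3-kinase (PI3K) and its lipid product hold forkhead box O (FoxO) factors in check, in B cells and plasma cells (PC) of mouse lymph nodes after immunisation. They were chosen by name, and all 7 (Foxo1, Foxo3, Foxp1, Pik3r1, Pik3cd, Inpp5d and Akt1) were among the 13886 genes of the count matrix. The matrix held 6000 cells of 3 mice immunised with NP-KLH (given in Sigma Adjuvant System) and given tamoxifen by gavage 5 days before collection, on day 16 of the response. The eYFP+ cells without IgD were sorted, and PC and non-PC were captured in separate wells with the mice told apart by antibody hashtags. Strain, genotype, age and the promoter behind the tamoxifen-dependent label were not given in the labels used here, and all groups share this treatment. The groups are states that the authors assigned to cells: 3040 cells of the germinal center dark zone (DZ), 165 cells between light and dark zone (LZtoDZ), 49 pre-plasma cells (prePC), 137 PC, 396 pre-memory cells (preMem) and 2213 cells of the light zone (LZ).

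PI3K is a lipid kinase made of a regulatory and a catalytic subunit. In B cells it is engaged by the antigen receptor, and its product PIP3 recruits the kinase AKT to the membrane. AKT phosphorylates FoxO factors, which then leave the nucleus, and FoxO1 is known as a factor of the DZ program. SHIP1, the protein of Inpp5d, removes a phosphate from PIP3 and so opposes the kinase. Much of this control acts on proteins and their position in the cell, which transcript counts do not measure.

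The unit was the unique molecular identifier (UMI), a count of captured transcript molecules. UMIs were summed per mouse and state into 18 sums, so that the 3 mice and not the cells are the replicates. The mice contributed 12669908, 18664942 and 20638376 UMIs. The median cell held 7875 UMIs in DZ, 19103 in LZtoDZ, 9225 in prePC, 24018 in PC, 4119 in preMem and 6258 in LZ. Of the PC, 117 carried a barcode of a second series, numbered so in the deposited cell names, against 0 of the LZ and preMem cells, so for PC the state and the barcode series largely cannot be told apart. In DZ, LZ, LZtoDZ, preMem and PC sums, the list of the state's own markers was higher than in any other state. A list of 6 preMem markers summed to between 1377 and 1492 CPM (UMIs scaled to an equal total per sum) in preMem sums, against 47.8 to 60.6 CPM in LZ sums. The prePC sums held 1019 to 1319 CPM of these preMem markers and 3131 to 6188 CPM of 6 plasma cell markers. Of the plasma cell markers, LZ sums held 1768 to 1911 CPM, DZ sums 2631 to 2829 CPM and PC sums 26862 to 31472 CPM. By these lists prePC lay nearer to preMem than to PC. Myeloid markers reached 355 CPM in a prePC sum and 5 of 49 prePC held 2 or more UMIs of markers of other cell types. The authors' cluster 4 held 40 of the 49 prePC and 374 of the 396 preMem cells. The 8 T cell markers reached between 66.4 and 133.8 CPM in PC, where 7 of them were at 0 UMIs and Cd28 gave the whole signal. The authors set the states from scores of these same cells, and no source used here gives the genes behind those scores, so a gene of the axis could have entered a score. Fewer transcripts of a gene and more transcripts of other genes in a cell cannot be told apart in such sums.

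Forkhead factors are themselves among these genes, so the windows before their starts were searched for forkhead-type motifs. The motif letters TAAACA (the core of the forkhead binding motif) and GTAAACA (a longer form that contains it) were searched on both strands in the 250 bases before 13 RefSeq starts of the 7 genes on GRCm38.p6. Foxp1 and Pik3cd had 3 starts each, Pik3r1 and Akt1 had 2 and the other genes 1. TAAACA was found before all 3 starts of Foxp1 and the first of 2 starts of Akt1, and in 12.0% of 32851 RefSeq windows of that length. GTAAACA was found before the first Akt1 start and in 3.17% of the windows. No match was found in the windows of Foxo1, Foxo3, Pik3r1, Pik3cd and Inpp5d. The matches are letters in a window, and no binding was measured. The windows with a match are shown 5′ to 3′ in the direction of the gene, with the matched bases in capitals, so that TGTTTA marks a match on the opposite strand.
Foxp1 start 1, chr6:99520994-99521243, minus strand: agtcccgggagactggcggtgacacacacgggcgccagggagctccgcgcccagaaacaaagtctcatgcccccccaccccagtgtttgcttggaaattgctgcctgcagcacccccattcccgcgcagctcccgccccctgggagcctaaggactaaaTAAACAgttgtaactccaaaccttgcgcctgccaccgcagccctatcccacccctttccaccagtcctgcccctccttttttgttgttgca
Foxp1 start 2, chr6:99266516-99266765, minus strand: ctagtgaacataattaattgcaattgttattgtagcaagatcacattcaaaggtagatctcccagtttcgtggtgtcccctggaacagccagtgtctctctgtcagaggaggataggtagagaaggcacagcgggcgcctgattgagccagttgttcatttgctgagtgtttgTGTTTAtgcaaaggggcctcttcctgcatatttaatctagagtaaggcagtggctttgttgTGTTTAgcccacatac
Foxp1 start 3, chr6:99028299-99028548, minus strand: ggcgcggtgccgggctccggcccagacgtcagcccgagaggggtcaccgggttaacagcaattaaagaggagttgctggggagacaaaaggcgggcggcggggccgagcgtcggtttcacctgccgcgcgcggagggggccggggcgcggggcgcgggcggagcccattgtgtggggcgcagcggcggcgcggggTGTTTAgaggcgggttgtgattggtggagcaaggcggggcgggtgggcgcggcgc
Akt1 start 1, chr12:112674885-112675134, minus strand: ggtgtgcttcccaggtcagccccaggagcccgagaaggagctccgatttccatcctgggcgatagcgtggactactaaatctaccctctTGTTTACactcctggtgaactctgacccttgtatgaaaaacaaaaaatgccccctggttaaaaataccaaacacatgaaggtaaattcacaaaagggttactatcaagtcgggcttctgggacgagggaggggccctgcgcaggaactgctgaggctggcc
The first base of the match lay 91 bases before the first Foxp1 start, 77 and 16 bases before the second, 55 bases before the third and 161 bases before the Akt1 start. On GRCm38, Foxo1 spans chromosome 3 from 52268336 to 52353221 on the plus strand, and Foxp1 spans chromosome 6 from 98925338 to 99522721 on the minus strand.

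Foxo1 encodes the FoxO factor best known from germinal center B cells. Its level, as CPM scaled by the trimmed mean of M values (TMM) over the sums, was 83.5, 84.5 and 87.1 CPM in DZ, 24.6, 26.8 and 37.9 CPM in LZtoDZ, 44.5, 14.0 and 76.5 CPM in prePC, 47.4, 43.3 and 45.0 CPM in PC, 60.6, 59.8 and 88.2 CPM in preMem, and 73.5, 67.3 and 74.1 CPM in LZ of mouse 1, 2 and 3. DZ lay above LZ in each mouse with no overlap of the mice, and LZtoDZ was lowest by its mean. By mean level the order was DZ, LZ, preMem, PC, prePC and LZtoDZ, and the mice of LZ and preMem, PC and prePC, and prePC and LZtoDZ overlapped.

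Foxo3, the related FoxO factor, was sparse. It had 62 UMIs in DZ, 6 in LZtoDZ, 1 in prePC, 15 in PC, 13 in preMem and 34 in LZ, and did not pass the count filter of the fit over states. Its mean level was 7.45 ± 2.49 CPM in PC, 6.77 ± 2.97 CPM in preMem, 1.97 ± 0.04 CPM in DZ and 1.90 ± 0.75 CPM in LZ (SD, n = 3 each). PC and preMem lay above DZ and LZ in each mouse, and the numbers of UMIs behind these levels are small.

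Foxp1 encodes a forkhead factor outside the FoxO group, reported in human as low in germinal center B cells. It had 244, 255 and 282 CPM in preMem, 138, 140.1 and 240.5 CPM in prePC, 121, 110.3 and 114 CPM in DZ, 73.2, 77.6 and 57.6 CPM in PC, 29.3, 36.0 and 26.5 CPM in LZtoDZ, and 80.6, 76.9 and 77.9 CPM in LZ of the 3 mice. The order by mean was preMem, prePC, DZ, LZ, PC and LZtoDZ. Only LZ and PC overlapped among neighbours in this order.

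Pik3r1 encodes the regulatory subunit p85α. Its means were 50.7 ± 9.59 CPM in preMem, 43.4 ± 1.27 CPM in prePC, 26.9 ± 1.24 CPM in DZ, 22.9 ± 6.05 CPM in PC, 17.3 ± 3.59 CPM in LZtoDZ and 29.1 ± 2.26 CPM in LZ (SD, n = 3 each). preMem and prePC lay above the other 4 states in each mouse, and the neighbours LZ, DZ, PC and LZtoDZ overlapped pairwise. Pik3cd encodes p110δ, the catalytic subunit that dominates in lymphocytes. Its means were 43.9 ± 1.57 CPM in DZ, 24.2 ± 1.31 CPM in LZtoDZ, 36.9 ± 26.3 CPM in prePC, 31.2 ± 5.86 CPM in PC, 53.3 ± 0.90 CPM in preMem and 49.8 ± 3.54 CPM in LZ (SD, n = 3 each). For Pik3cd the mice of LZ and DZ did not overlap, whereas all other neighbours by mean level did.

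Inpp5d was highest by mean in LZ and lowest in PC. It had 73.7, 82.7 and 85.6 CPM in DZ, 50.4, 52.0 and 73.8 CPM in LZtoDZ, 66.7, 56.0 and 87.5 CPM in prePC, 35.9, 25.5 and 43.2 CPM in PC, 96.1, 118 and 95.3 CPM in preMem, and 108, 102 and 114 CPM in LZ of the 3 mice. DZ lay below LZ and PC below every other state in each mouse. Akt1, which encodes the kinase that phosphorylates FoxO factors, had 38.3, 35.8 and 36.3 CPM in DZ, 16.4, 30.6 and 25.9 CPM in LZtoDZ, 17.8, 24.5 and 0 CPM in prePC, 12.9, 16.5 and 10.8 CPM in PC, 10.4, 14.9 and 14.2 CPM in preMem, and 19.8, 21.6 and 19.4 CPM in LZ. DZ lay above all other states, and the other neighbours by mean level overlapped. The 0 CPM of mouse 3 in prePC rests on 10 cells.

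**Figure D1:**
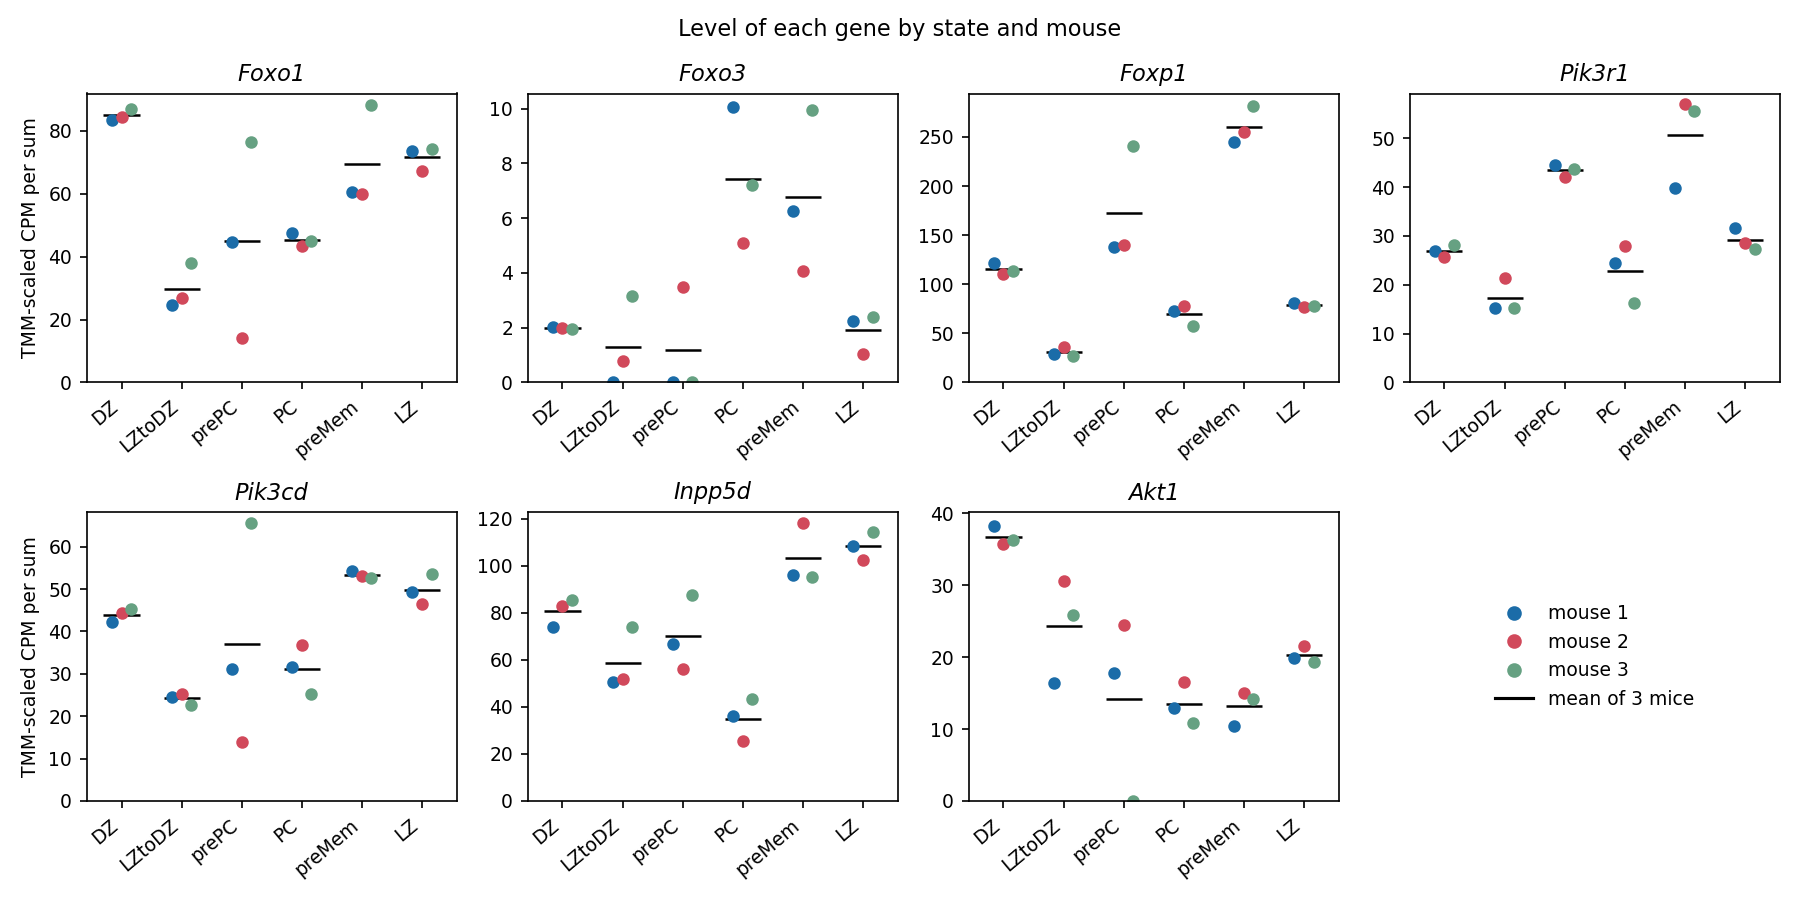
Level of each gene in TMM-scaled CPM (vertical axis) in the sums of 6 states (horizontal axis), with a point for each of 3 mice and a line at the mean. Foxp1 lies between 244 and 282 CPM in preMem, against 76.9 to 80.6 CPM in LZ, and Akt1 between 35.8 and 38.3 CPM in DZ, against 19.4 to 21.6 CPM in LZ.

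Between the zones, Foxp1 and Akt1 transcripts were higher in DZ than in LZ and Inpp5d transcripts were lower. In edgeR's quasi-likelihood test with mouse as a block, Akt1 changed by 0.87 ± 0.10 on the log2 scale (SE, Benjamini-Hochberg adjusted p = 2.91e-05), Foxp1 by 0.56 ± 0.11 (adjusted p = 0.00229) and Inpp5d by -0.41 ± 0.08 (adjusted p = 0.00248). So 2 of 6 genes tested rose and 1 fell, where 19.4% of the 8473 genes tested passed the threshold of 0.05 in either direction (8.17% higher, 11.3% lower). Foxo1 changed by 0.26 ± 0.09 and did not pass in edgeR (adjusted p = 0.0525). A robust estimate of the spread, which was run first and then set aside for edgeR's default, gave Foxo1 an adjusted p of 0.0292. Pik3cd (-0.17 ± 0.08, adjusted p = 0.144) and Pik3r1 (-0.08 ± 0.09, adjusted p = 0.581) did not pass in edgeR. Pik3cd passed in edgeR with at least 20 cells per sum (adjusted p = 0.0412) and without immunoglobulin genes (adjusted p = 0.0491), as Foxo1 did (adjusted p = 0.0152 and 0.00459). Without mouse 1 the call of Inpp5d was lost in edgeR (-0.35 ± 0.11, adjusted p = 0.0618). With 10 cells in each sum its value was 0.037 and 0 genes of any kind passed.

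The zones also differ in cell cycle phase as the authors called it, with 35.5% of DZ cells and 55.8% of LZ cells in G1. Within G1 cells, TMM-scaled over all sums of mouse, state and phase, Akt1 had 49.6, 48.3 and 44.9 CPM in DZ, against 24.1, 30.8 and 20.0 CPM in LZ. Foxp1 had 199, 193 and 204 CPM in DZ, against 123, 116 and 126 CPM in LZ. The groups did not overlap for either gene. In edgeR, 3 of 7 genes were higher in G1 cells of DZ and 1 was lower, where 12.4% of 9374 genes passed (6.39% higher, 5.98% lower). Akt1 changed by 0.95 ± 0.14 (adjusted p = 2.4e-05), Foxp1 by 0.70 ± 0.08 (adjusted p = 1.11e-06), Foxo1 by 0.36 ± 0.10 (adjusted p = 0.0183) and Inpp5d by -0.44 ± 0.10 (adjusted p = 0.00397). Foxo1 had 131, 121 and 128 CPM in DZ, against 98.3, 91.3 and 105 CPM in LZ. Its call was lost in edgeR without any 1 of the mice (adjusted p between 0.076 and 0.104), although its value stayed between 0.33 and 0.41, and without the mouse block (adjusted p = 0.0681). Inpp5d lost its call in edgeR without mouse 1 (-0.31, adjusted p = 0.127). With each cell thinned to 2000 UMIs, Foxo1 (0.29, edgeR adjusted p = 0.393) and Inpp5d (-0.43, adjusted p = 0.121) did not pass.

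In LZtoDZ, transcripts of 5 of 6 genes tested were lower than in LZ, where 46.8% of all genes passed (22.5% higher, 24.3% lower). Foxp1 fell by 1.37 ± 0.15 on the log2 scale, Foxo1 by 1.23 ± 0.15, Pik3cd by 1.07 ± 0.14, Inpp5d by 0.87 ± 0.12 and Pik3r1 by 0.74 ± 0.17 (edgeR, SE, adjusted p at most 0.00176). Akt1 did not pass in edgeR (0.31 ± 0.17, adjusted p = 0.164). The median over the 6 genes was -0.97, beside -0.08 over all genes tested. The median LZtoDZ cell held 19103 UMIs, against 6258 UMIs in LZ, and 10.3% of LZtoDZ cells were called G1, against 55.8% of LZ cells; the part of either in the result was not tested.

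In preMem, Foxp1 and Pik3r1 were higher than in LZ. Foxp1 was higher by 1.75 ± 0.13 on the log2 scale (edgeR, adjusted p = 7.5e-08), and Pik3r1 was higher by 0.87 ± 0.16 (adjusted p = 0.000538). These were 2 of 6 genes tested, where 31.3% of all genes passed (16.7% higher, 14.7% lower). Foxo1 (-0.01 ± 0.15), Pik3cd (0.11 ± 0.15), Inpp5d (-0.04 ± 0.12) and Akt1 (-0.56 ± 0.27, adjusted p = 0.132) did not pass in edgeR. Within G1 cells Foxp1 had 277, 288 and 311 CPM in preMem, against 123, 116 and 126 CPM in LZ. The change was 1.30 ± 0.09 in edgeR (adjusted p = 1.52e-10), and here 19.5% of all genes passed (10.2% higher, 9.33% lower), among them 3 of the 7, all higher. Pik3r1 had 45.3, 62.7 and 56.7 CPM in preMem, against 39.0, 41.5 and 34.8 CPM in LZ, and changed by 0.59 ± 0.17 in G1 (edgeR, adjusted p = 0.0124). Foxo3 had 3, 3 and 7 UMIs in 96, 137 and 137 preMem cells, against 6, 2 and 9 UMIs in 307, 358 and 570 LZ cells, and changed by 1.73 ± 0.58 (edgeR, adjusted p = 0.0375). The groups did not overlap in CPM for either gene. Without mouse 1 or mouse 2 the Foxo3 call was lost in edgeR (adjusted p = 0.0868 and 0.106), as it was without the mouse block (adjusted p = 0.0568), and without mouse 2 or mouse 3 that of Pik3r1 (adjusted p = 0.103 and 0.166). Inpp5d did not pass within G1 (-0.35 ± 0.13, edgeR adjusted p = 0.0664), and passed with the robust estimate of the spread (adjusted p = 0.032).

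In prePC, which rest on 17, 22 and 10 cells, Foxp1 was higher than in LZ by 1.09 ± 0.17 (edgeR, adjusted p = 0.000386). It was the 1 gene of 6 to pass, where 13.4% of all genes did (8.08% higher, 5.3% lower). Of prePC, 85.7% were called G1, against 55.8% of LZ cells. Within G1, Foxp1 had 167, 218 and 267 CPM in 14, 19 and 9 prePC, against 123, 116 and 126 CPM in LZ. This difference within G1 was not tested. Foxo1 (-0.92 ± 0.31, adjusted p = 0.0614) and Inpp5d (-0.63 ± 0.22, adjusted p = 0.0714) did not pass in edgeR. With the robust estimate both did, at adjusted p = 0.0325 and 0.0419. Leaving out cells with other-type RNA removed cells of all states, among them 5 prePC and 62 PC. In that fit Inpp5d passed in edgeR (-0.92 ± 0.24, adjusted p = 0.0205) and Foxp1 kept its call. Mouse 3, with 2 of its 10 prePC removed, then fell under the minimum of 10 cells, so its prePC sum was lost too. The part of each in the result was not tested. Without mouse 3 Foxo1 passed in edgeR (-1.28 ± 0.31, adjusted p = 0.0284). Over all alternatives Foxo1 lay between -2.22 (mouse 2 alone, the 1 prePC sum of at least 20 cells) and 0.063 (2000 UMIs per cell, where it did not pass). Pik3r1 (0.66 ± 0.28, adjusted p = 0.147) and Pik3cd (-0.72 ± 0.31, adjusted p = 0.149) did not pass in edgeR, nor did Akt1 (-0.08 ± 0.42).

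PC had lower Inpp5d, Foxo1 and Pik3cd transcripts than LZ. Inpp5d fell by 1.63 ± 0.16 on the log2 scale (edgeR, adjusted p = 3.28e-07), Foxo1 by 0.62 ± 0.17 (adjusted p = 0.00588) and Pik3cd by 0.61 ± 0.17 (adjusted p = 0.00644). So 3 of 6 genes fell, where 53.3% of all genes passed (26.4% higher, 26.9% lower). Of PC, 66.4% were called G1, against 55.8% of LZ cells. Within G1, Pik3cd had 60.1, 58.5 and 31.7 CPM in PC, against 61.2, 63.1 and 65.0 CPM in LZ, so 2 mice lay close together. Foxo1 had 40.1, 55.4 and 42.3 CPM in PC, against 98.3, 91.3 and 105 CPM in LZ. Inpp5d had 56.1, 36.9 and 52.9 CPM in PC, against 147, 136 and 144 CPM in LZ. These differences within G1 were not tested. Foxp1 (-0.13 ± 0.15), Pik3r1 (-0.26 ± 0.19) and Akt1 (-0.53 ± 0.26, adjusted p = 0.101) did not pass in edgeR. Against preMem, 5 of 6 genes were lower in PC, where 50.3% of all genes passed (24.5% higher, 25.8% lower). Foxp1 fell by 1.89 ± 0.15, Inpp5d by 1.59 ± 0.19, Pik3r1 by 1.14 ± 0.22, Pik3cd by 0.72 ± 0.21 and Foxo1 by 0.62 ± 0.21 (edgeR, adjusted p at most 0.0251). Left to the first barcode series, 20 PC remained, with 1 sum of at least 10 cells (mouse 2) that was assumed to vary like the other sums. In that fit Inpp5d was at -1.39 ± 0.44 against LZ (edgeR, adjusted p = 0.067) and Foxp1 at -1.45 ± 0.33 against preMem (adjusted p = 0.00904). Pik3r1 was at -3.15 ± 0.84 against preMem in that sum of 11 PC. All 58 PC of mouse 2 held 22 UMIs of Pik3r1, so few molecules lie behind this value. Foxo1, Pik3cd and Inpp5d lost their calls in both comparisons of that fit. There Foxo1 was at -0.94 ± 0.57 against LZ and -0.90 ± 0.59 against preMem, Pik3cd at -0.48 ± 0.51 and -0.55 ± 0.52, and Inpp5d at -1.31 ± 0.45 against preMem, with larger SE than over 3 mice. Pik3cd against LZ lost its call in edgeR without mouse 1 (adjusted p = 0.0692) or mouse 3 (adjusted p = 0.0641). Against preMem, Foxo1 lost its call in edgeR without mouse 1 (adjusted p = 0.0706) or mouse 3 (adjusted p = 0.177), and Pik3cd without mouse 1 (adjusted p = 0.0996). Other-type markers reached 2 or more UMIs in 62 PC with Cd28 counted and in 5 PC without it. A filter on these markers with Cd28 counted thus left out PC mostly by Cd28. With the 75 PC left by it, Foxo1 was at -0.35 ± 0.21 against LZ (edgeR, adjusted p = 0.197). Akt1 passed there at -1.08 ± 0.36 (edgeR, adjusted p = 0.0298). With the 132 PC left when Cd28 was not counted, Foxo1 kept its call against LZ and Akt1 did not pass in edgeR.

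**Figure D2:**
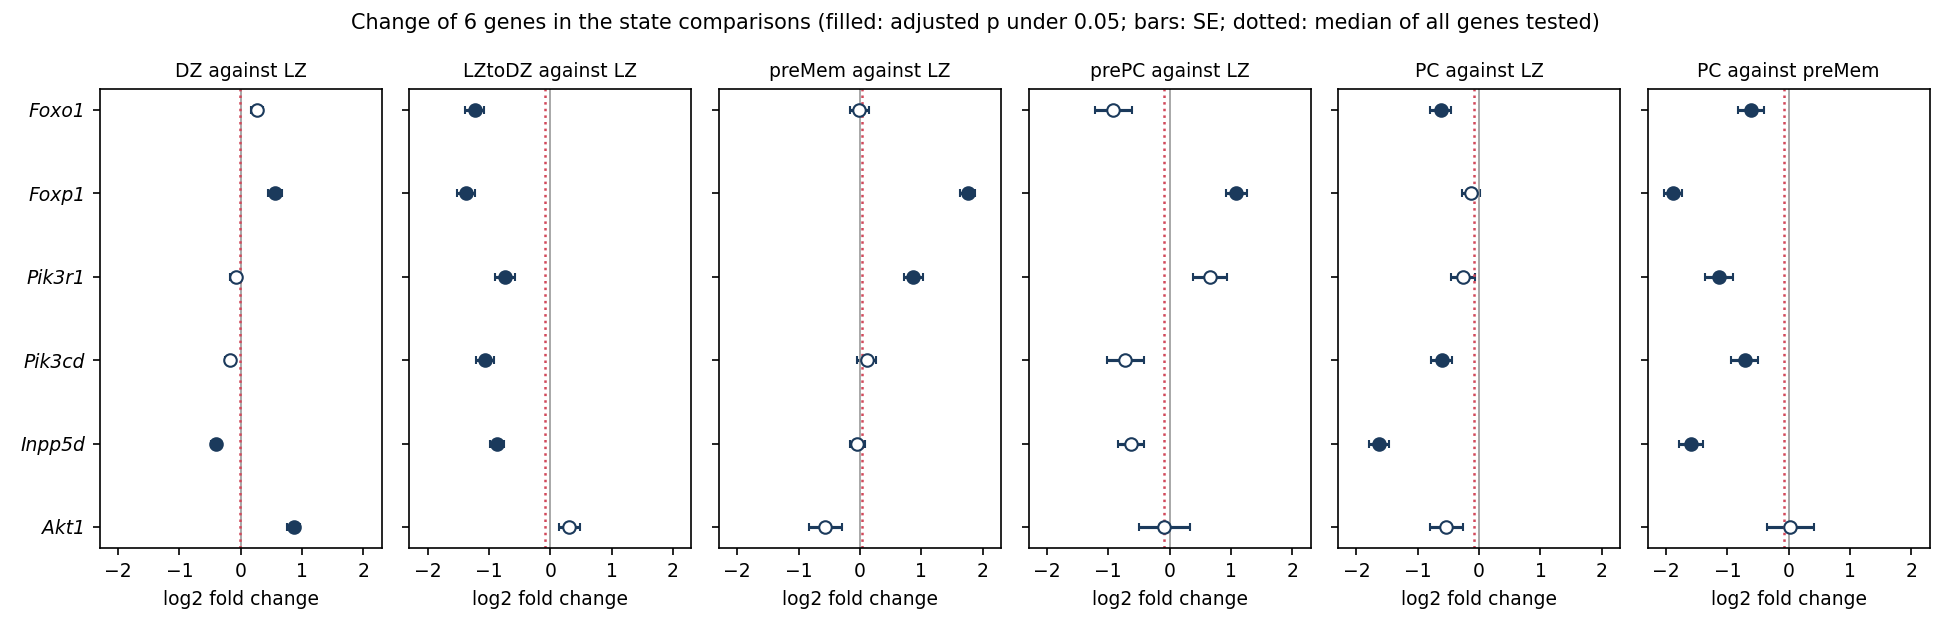
Log2 fold change of 6 genes (rows) in the 6 comparisons between states (panels), with SE bars, filled points for adjusted p under 0.05 in edgeR and a dotted line at the median of all genes tested. Foxp1 lies at 1.75 for preMem against LZ and at -1.37 for LZtoDZ against LZ, and Inpp5d at -1.63 for PC against LZ.

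Cell cycle phase was examined in DZ and LZ cells together, giving both zones equal weight. Foxo1 had 131, 121 and 128 CPM in G1, 87.0, 86.6 and 94.5 CPM in S and 87.4, 98.9 and 95.5 CPM in G2M cells of DZ. In LZ it had 98.3, 91.3 and 105 CPM in G1, 66.6, 71.1 and 62.4 CPM in S and 82.5, 60.3 and 84.9 CPM in G2M. G1 lay above S and G2M in each zone. Foxp1 averaged 199 ± 5.92 CPM in G1, 131 ± 5.83 CPM in S and 102 ± 10.4 CPM in G2M cells of DZ. In LZ it averaged 122 ± 4.78 CPM in G1, 66.6 ± 5.35 CPM in S and 60.8 ± 5.89 CPM in G2M (SD, n = 3 each). Inpp5d averaged 104 ± 17.1 CPM in G1, 86.7 ± 2.94 CPM in S and 97.1 ± 6.21 CPM in G2M cells of DZ, and 143 ± 5.58, 110.4 ± 10.9 and 105 ± 11.04 CPM in LZ. Pik3r1 averaged 38.0 ± 2.50, 27.4 ± 1.05 and 31.8 ± 2.15 CPM in G1, S and G2M cells of DZ, and 38.4 ± 3.41, 30.6 ± 4.59 and 26.9 ± 2.47 CPM in LZ. So the G1 mean was the highest of the 3 phases for each of these 4 genes in each zone. The mice did not all share this for Inpp5d in DZ. It had 85.4, 109 and 119 CPM in G1, against 89.9, 101 and 100 CPM in G2M of mouse 1, 2 and 3.

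Relative to G1, 5 of 7 genes fell in S, where 40.7% of all genes passed (21.3% higher, 19.3% lower). In edgeR Foxp1 fell by 0.68 ± 0.06 (adjusted p = 1.13e-09), Foxo1 by 0.47 ± 0.07 (adjusted p = 1.07e-05), Pik3r1 by 0.35 ± 0.09 (adjusted p = 0.00357), Inpp5d by 0.25 ± 0.07 (adjusted p = 0.00598) and Pik3cd by 0.25 ± 0.08 (adjusted p = 0.0117). In G2M, 4 of 7 fell, where 39.5% of all genes passed (19.3% higher, 20.2% lower). Foxp1 fell by 0.95 ± 0.07 (edgeR, adjusted p = 1.77e-11), Foxo1 by 0.36 ± 0.08, Pik3r1 by 0.33 ± 0.11 and Inpp5d by 0.23 ± 0.08. Akt1 did not pass in S (-0.04 ± 0.10) or G2M (-0.27 ± 0.12, edgeR adjusted p = 0.0823), nor did Foxo3. Pik3cd in S lost its call without mouse 1 or 2 (edgeR, adjusted p = 0.0811 and 0.193). In G2M, Pik3r1 lost its call without mouse 1 or 2 (edgeR, adjusted p = 0.076 and 0.143) and Inpp5d without mouse 2 or 3 (adjusted p = 0.117 and 0.0611). Pik3cd passed in G2M without mouse 3 (-0.37 ± 0.10, edgeR adjusted p = 0.00832). Without the mouse block Inpp5d in G2M did not pass (edgeR, adjusted p = 0.0679). With 2000 UMIs per cell, Pik3r1, Inpp5d and Pik3cd did not pass in S (edgeR, adjusted p = 0.235, 0.114 and 0.203), nor Pik3r1 and Inpp5d in G2M (adjusted p = 0.492 and 0.118).

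Whether the zone difference depended on phase was tested as an interaction in edgeR. No gene of the 7 passed for S, where 1 of 9374 genes passed (0.0107%), or for G2M, where 12 genes passed (0.128%, with 0.064% in each direction). At an unadjusted p under 0.05 there were 515 genes for S and 927 for G2M, and DESeq2 called 87 and 224. The largest interactions within the axis were those of Foxo3, -0.63 ± 0.74 for S and -0.83 ± 0.90 for G2M, whose SE exceeded the values. For Foxp1 the interval of 2 SE ran from 0.03 to 0.51 for S and from -0.24 to 0.32 for G2M. For Inpp5d it ran from -0.21 to 0.36 for S and from 0.03 to 0.65 for G2M (edgeR, adjusted p = 0.461).

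**Figure D3:**
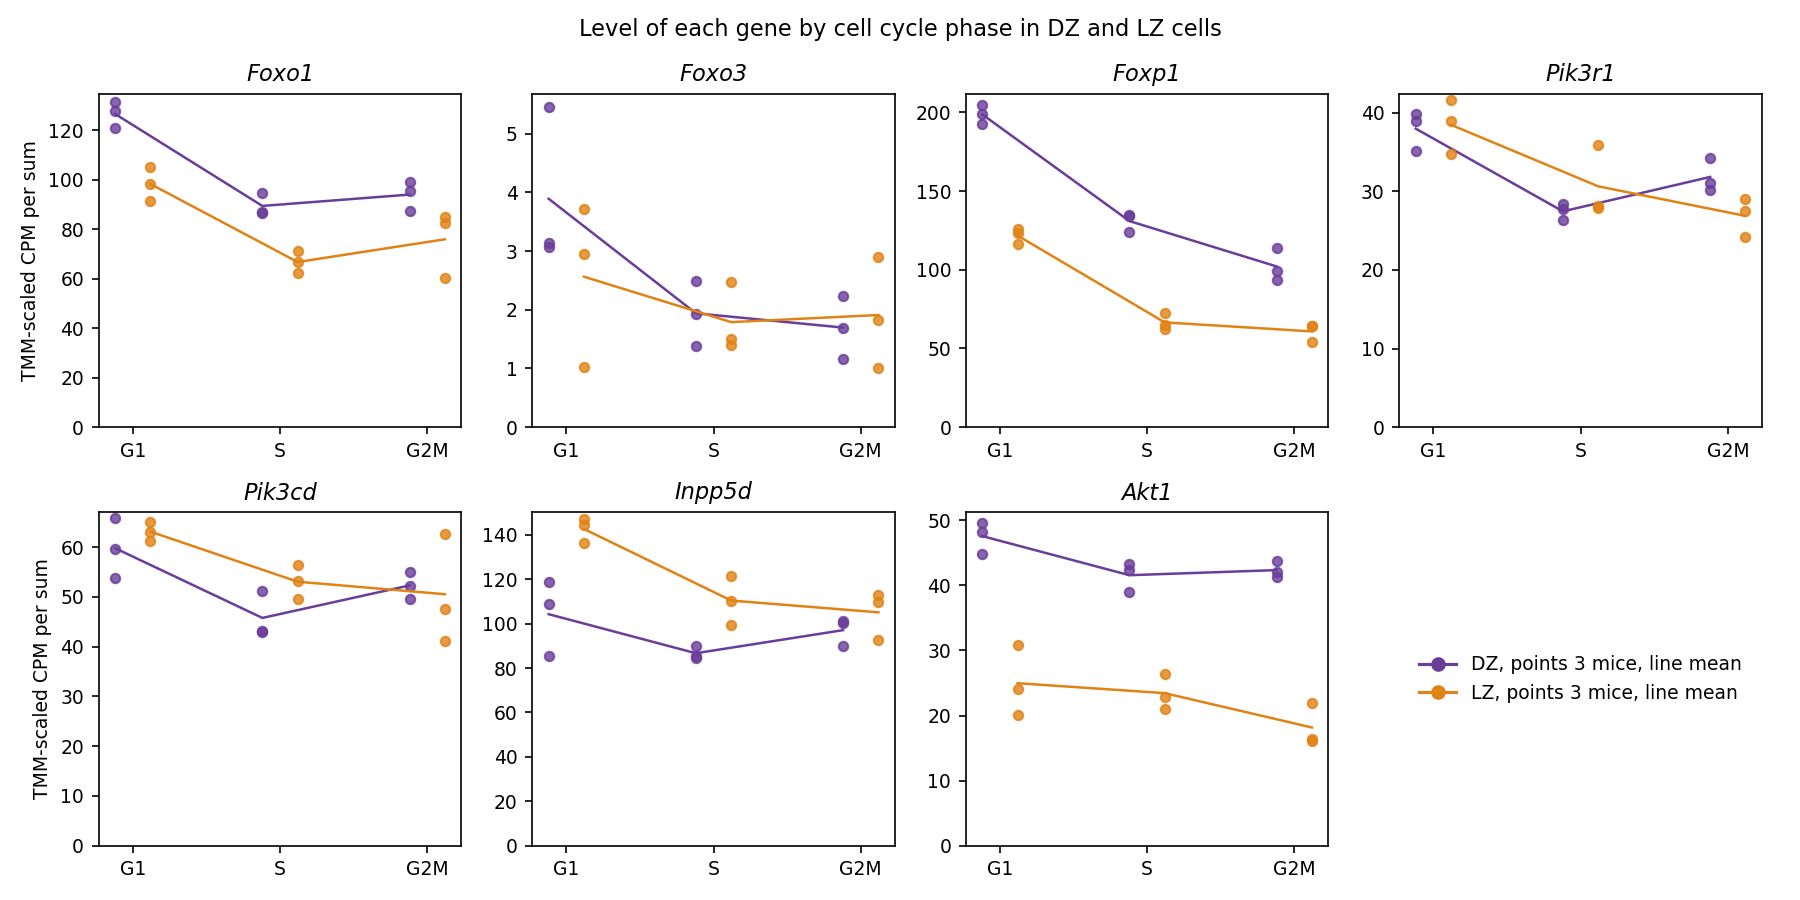
TMM-scaled CPM (vertical axis) of each gene in G1, S and G2M cells of DZ and LZ (horizontal axis), with a point per mouse and a line through the means. Foxp1 and Foxo1 lie highest in G1 in both zones, and Akt1 in DZ lies above LZ in all 3 phases.

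Of the 34 other genes on the PI3K and mTOR list, 27 were tested between states. In DZ against LZ, 1 rose and 4 fell (8.17% and 11.3% of all genes). Pdpk1, the kinase that phosphorylates AKT, rose by 0.31 ± 0.09 (edgeR, adjusted p = 0.0171), and Pik3ap1, the adaptor BCAP, fell by 0.72 ± 0.07 (adjusted p = 6.89e-06). In preMem against LZ 8 rose and 1 fell, against 16.7% and 14.7% of all genes. Pik3ip1, an inhibitor of PI3K, had 40 UMIs in preMem, against 17 UMIs in LZ with its larger number of cells, and changed by 4.40 ± 0.50 (edgeR, adjusted p = 8.12e-06). Sgk1, an AKT-related kinase, changed by 3.36 ± 0.67 on 18 UMIs in preMem, against 16 UMIs in LZ, and Rheb, the activator of mTORC1, fell by 0.40 ± 0.12. Pik3r6, a regulatory subunit of p110γ, had 7 UMIs in preMem, against 3 UMIs in LZ, a ratio of 19.8 per total UMIs (exact binomial 95% interval 4.51 to 118, counting error only). In LZtoDZ 3 rose and 9 fell (22.5% and 24.3% of all genes). Eif4ebp1, a target of mTORC1, rose by 0.73 ± 0.16, and Pik3cg, the p110γ subunit, fell by 2.72 ± 0.32. In prePC 3 rose and 2 fell (8.08% and 5.3% of all genes). In PC against LZ 5 rose and 4 fell, where 26.4% and 26.9% of all genes did. Pik3r5, a regulatory subunit of p110γ, rose by 5.33 ± 0.38 and Mtor by 1.43 ± 0.25, whereas Pik3ap1 fell by 3.46 ± 0.23. Against preMem, 4 rose and 8 fell in PC, where 24.5% and 25.8% of all genes did. Left to the first barcode series, PC had 1 sum of at least 10 cells. For this and the following lists, state and barcode series of PC largely cannot be told apart.

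Of 16 genes listed for signalling close to the B cell receptor, 15 were in the matrix and 14 tested. In LZtoDZ against LZ 0 rose and 12 fell, where 22.5% and 24.3% of all genes did, among them Cr2 (-1.61 ± 0.18), Cd79b (-1.52 ± 0.14), Cd79a (-1.40 ± 0.18) and Lyn (-1.26 ± 0.19). The median of the list was -0.94, beside -0.08 over all genes. In PC against LZ 2 rose and 12 fell (26.4% and 26.9% of all genes), with a median of -1.02, beside -0.09 over all genes. The 2 that rose were Cd81 (0.68 ± 0.13) and Blnk (0.49 ± 0.12), and Lyn (-2.89 ± 0.22) and Blk (-2.33 ± 0.18) were among those that fell. Cr2, the complement receptor, had 2 UMIs in PC, against 1329 UMIs in LZ, a ratio of 0.007 per total UMIs (exact binomial 95% interval 0.000846 to 0.0253). Immunoglobulin genes gave 36.4% of the UMIs in PC, against 1.32% in LZ, and are part of the totals behind this and the other ratios of PC. Against preMem, 2 rose and 12 fell in PC, beside 24.5% and 25.8% of all genes. In preMem 5 rose and 0 fell (16.7% and 14.7% of all genes), Blk by 0.82 ± 0.14 and Cd79a by 0.68 ± 0.18. In DZ 0 rose and 2 fell (8.17% and 11.3% of all genes), Cr2 by 1.05 ± 0.10 and Plcg2 by 0.36 ± 0.09. In prePC 1 rose and 2 fell (8.08% and 5.3% of all genes).

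The next list holds 10 genes, namely receptors and adaptors that recruit phosphatases and the phosphatase genes Ptpn6 and Ptpn11. Of these 10, 9 were tested. In DZ against LZ 1 rose and 6 fell (8.17% and 11.3% of all genes), with a median of -0.58, beside -0.02 over all genes. Cd72 fell by 1.40 ± 0.18 (edgeR, adjusted p = 6.22e-05), Fcgr2b by 0.71 ± 0.17, Cd22 by 0.67 ± 0.17 and Pecam1 by 0.64 ± 0.13, and Dok3 rose by 0.53 ± 0.14. In LZtoDZ 0 rose and 8 fell (22.5% and 24.3% of all genes), and in PC against LZ 0 rose and 7 fell (26.4% and 26.9% of all genes), among them Cd22 (-4.64 ± 0.30) and Ptpn6, the phosphatase SHP-1 (-3.95 ± 0.23). Against preMem, 0 rose and 8 fell in PC, beside 24.5% and 25.8% of all genes. In preMem 4 rose and 0 fell (16.7% and 14.7% of all genes), Pecam1 by 1.80 ± 0.17, Fcgr2b by 1.58 ± 0.24, Cd72 by 1.35 ± 0.19 and Cd22 by 0.63 ± 0.18. In prePC 0 of 9 passed in edgeR, and 2 fell in DESeq2.

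Of 25 reported FoxO target genes of lymphocytes, 22 were in the matrix and 21 tested between states. Several of them are also markers by which such states are known, so their change is not separate from the state. In preMem against LZ 10 rose and 2 fell (16.7% and 14.7% of all genes), with a median of 0.74, beside 0.03 over all genes. The chemokine receptor Ccr7 rose by 5.28 ± 0.32, the egress receptor S1pr1 by 5.06 ± 0.22 and Klf2, which drives S1pr1, by 4.77 ± 0.23 (edgeR, adjusted p at most 5.09e-08). Klhl6 fell by 0.65 ± 0.15. In DZ against LZ 3 rose and 5 fell (8.17% and 11.3% of all genes). Cxcr4, the DZ chemokine receptor, rose by 1.23 ± 0.10, and Ccnd2 fell by 3.67 ± 0.29. In LZtoDZ 2 rose and 12 fell (22.5% and 24.3% of all genes). Ccnd2, a cyclin, rose by 2.16 ± 0.21, Bach2 fell by 2.39 ± 0.12, and Ccr7 had 0 UMIs in LZtoDZ, against 27 UMIs in LZ, which is at least 1.99-fold lower when 3 UMIs are set as the floor of the whole group. In prePC 7 rose and 4 fell (8.08% and 5.3% of all genes), among them S1pr1 (5.19 ± 0.33), Klf2 (4.63 ± 0.23) and Bach2 (-1.83 ± 0.22). In PC against LZ 10 rose and 8 fell (26.4% and 26.9% of all genes), among them Ccnd2 (5.26 ± 0.17), S1pr1 (3.18 ± 0.32) and Btg1 (-4.69 ± 0.33). Bach2 had 2 UMIs in PC, against 2085 UMIs in LZ (ratio 0.00446, exact binomial 95% interval 0.00054 to 0.0161). Against preMem, 6 rose and 14 fell in PC, beside 24.5% and 25.8% of all genes.

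**Figure D4:**
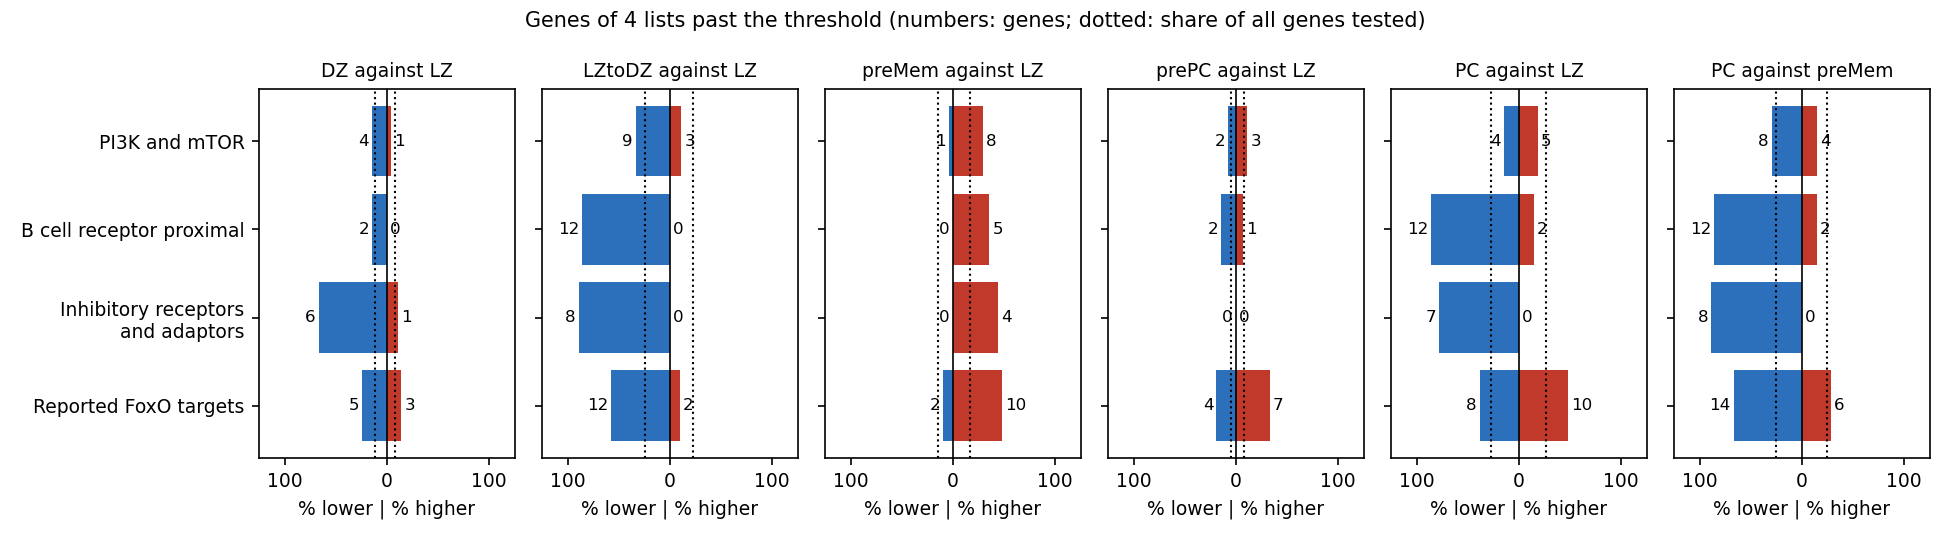
Share of the tested genes of 4 lists that passed the threshold in edgeR, in percent, lower to the left and higher to the right, in each comparison between states, with the number of genes at each bar and dotted lines at the share of all genes tested. In LZtoDZ against LZ 12 of 14 genes near the B cell receptor were lower, and in preMem against LZ 10 of 21 reported FoxO targets were higher.

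Of all genes, 21.3% rose and 19.3% fell in S against G1, and 19.3% rose and 20.2% fell in G2M. The reported FoxO targets had 0 genes higher and 10 lower of 22 in S against G1, and 2 higher and 8 lower in G2M. Klf2 fell by 0.58 ± 0.19 in S, and Ccng2, a cyclin G family member, rose by 1.01 ± 0.09 in G2M. Of the 14 genes near the B cell receptor 11 fell in S and 10 fell in G2M, Blk by 0.68 ± 0.07 in S and Cd79b by 0.78 ± 0.06 in G2M. On the list of phosphatase recruiters and phosphatases 8 fell in S and 5 in G2M, and Ptpn11, which encodes the phosphatase SHP-2, rose in both. The PI3K and mTOR list had 3 higher and 6 lower of 31 in S, and 6 higher and 7 lower in G2M, where Mtor rose by 0.73 ± 0.17.

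Over the 18 sums, the level of Pik3r1 followed that of Foxp1 with a Pearson r of 0.92 on log2(CPM + 1), and Pik3cd followed Foxo1 with r of 0.89. These are descriptions of sums that share mice, libraries and depth and fall into 6 states. Without the 3 prePC sums the values were 0.92 and 0.83. Akt1 had r between -0.37 and 0.16 with the other 6 genes. In the prePC sum of mouse 3 (10 cells) Akt1 was at 0 CPM, against at least 10.4 CPM in every other sum. That 1 sum can weigh heavily on the r values of Akt1 here and below, which were not computed without it. Among 2526 genes with a mean of at least 50 CPM, the levels most like those of Foxp1 were Ypel3, Sp100 and Hmha1 (r of 0.96 each). For Pik3r1 they were Sp140, Ddit4 and Ppp3ca (0.94, 0.92 and 0.92), for Akt1 Cdca8, Vps35 and Casc5 (0.96, 0.96 and 0.95), and for Inpp5d Hist2h2ac, Smim14 and Hist1h4d (0.93, 0.92 and 0.92). For Foxo1 they were Ptk2b, Gps2 and Sft2d1 (0.88, 0.87 and 0.85), for Pik3cd Foxo1, Gps2 and Elf1 (0.89, 0.87 and 0.87), and for Foxo3, at low counts, Degs1, Ptp4a2 and Adipor1 (0.85, 0.80 and 0.80).

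**Figure D5:**
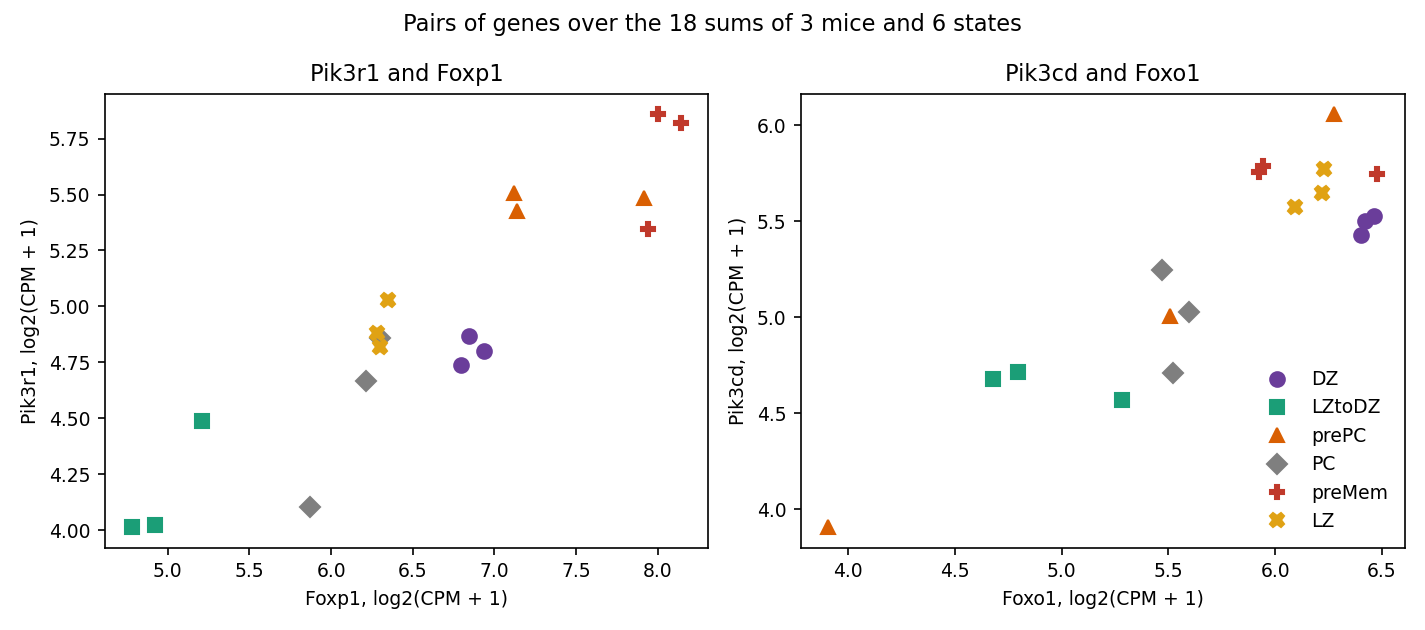
Levels of Pik3r1 against Foxp1 and of Pik3cd against Foxo1, as log2(CPM + 1), in the 18 sums of 3 mice and 6 states, with a symbol per state. preMem and prePC sums lie at the upper right for Pik3r1 and Foxp1 (r of 0.92), and a prePC sum lies at the lower left for Pik3cd and Foxo1 (r of 0.89, and 0.83 without prePC).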

How the data were processed

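The authors deposited raw UMI counts per gene and cell, with a table of mouse, state, cluster, phase and scores per cell; the sums of all 6000 cells equal the deposited totals. The deposited scores behind the states were not used as values. The submitters' processing notes name Cell Ranger, Seurat, mm10 and GRCm38; no source used here gives the cell filters or the treatment of doublets. The 12 libraries in 6 groups have no file of their own, so mice and states come from the deposited table.

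Counts were summed per mouse and state, and per mouse, state and phase, with at least 10 cells per sum. Fits used edgeR 4.0.16 (R 4.3.3, TMM, filterByExpr, glmQLFit, glmQLFTest), mouse as a block, Benjamini-Hochberg adjustment over all genes and a threshold of 0.05. SE is the log2 fold change over the square root of F. The same animal gives the same-numbered sums; over 8473 genes their deviations from state means had a median r of 0.04 in 45 pairs, against -0.02 in 90 pairs of different mice. TMM scales of the state and phase sums differ, so their CPM do not compare. P-values rest on the spread left between sums once group and mouse are fitted. That spread was estimated over all sums of a fit and moderated across genes, with the 3 mice as replicates.

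The fits were first run with robust = TRUE in glmQLFit and those results were seen; the default, which the written design implies, then replaced it, and both are given where a call of the 7 genes differs. The genes and lists were chosen with earlier results of these data known. Named genes were the 7, up to 4 per list and direction with the largest change past the threshold, and the 3 most correlated genes. Some genes that this rule names are counted in their lists but not reported here by name. Intervals and floors on UMIs cover counting error only. Alternatives were DESeq2 1.42.0, its size factors, no count filter, no replicate block, a minimum of 20 cells, equal cell numbers, 2000 UMIs per cell, no immunoglobulin genes, no cells with 2 or more UMIs of other-type markers and each mouse left out. Chosen after seeing the data were leaving Cd28 out of those markers, leaving out the second barcode series and the robust spread. The test was also run on simulated counts with an equal spread for all genes and sums and no mouse effect. That run cannot show how the test does where sums of few cells vary more. Promoter sequences are from RefSeq on GRCm38.p6, and gene positions from GENCODE M21 on GRCm38. B cell receptor and hashtag libraries were not analysed here.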

Additional observations from a re-analysis of the deposited data

How the results depend on the processing

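Of 1088 values of the 7 genes under the alternatives, 967 kept direction and call, 56 lost the call, 25 gained one and 40 changed sign. A gene that an alternative did not test, or gave no adjusted p, has no value among the 1088. In DZ against LZ, for example, Akt1 had a value in 13 alternatives and Foxp1 in 15. Whether a call would hold where a gene had no value is not known. Of the 40, 39 passed the threshold neither as reported nor under the alternative. The other was Inpp5d in DZ against LZ, called as reported and at 0.037 (log2) with 10 cells in every sum. Equal cell numbers lost 14 further calls and 2000 UMIs per cell 9. The cause was not tested, beyond that fewer cells or UMIs leave fewer molecules to count.

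The other sign changes, as log2 values, were these. With 2000 UMIs per cell, Foxo1 was at 0.379 in preMem and 0.063 in prePC against LZ, and in G1 Pik3cd was at 0.11 in DZ, and Foxo1 at 0.046 and Pik3cd at 0.036 in preMem. For zone by phase that setting gave Inpp5d -0.0067 and Akt1 0.411 in S, and Foxo1 0.0896 and Akt1 -0.229 in G2M. Equal cell numbers gave Pik3cd 0.015 in DZ against LZ in G1, and for zone by phase Foxo1 -0.547 and Pik3cd 0.592 in S and Foxp1 -0.23 and Pik3cd -0.0094 in G2M. Without immunoglobulin genes Foxo1 was at 0.019 in preMem against LZ. Akt1 in prePC against LZ was at 0.282 with at least 20 cells (mouse 2 alone). It was at 0.372 and 0.343 without cells with other-type RNA (Cd28 counted and not counted), which also removed the prePC sum of mouse 3. In PC without those cells and without the second barcode series, Foxp1 against LZ was at 0.107 and 0.266, and Akt1 against preMem at -0.529 (-0.011 with Cd28 not counted) and -1.26. Leaving out 1 mouse at a time, preMem against LZ gave Foxo1 -0.188 to 0.073 and Inpp5d -0.206 to 0.081, prePC against LZ gave Akt1 -0.544 to 0.119, PC against preMem gave Akt1 -0.072 to 0.178, S against G1 gave Akt1 -0.244 to 0.089, and DZ against LZ in G1 gave Pik3cd -0.177 to 0.018 and Pik3r1 -0.136 to 0.11. For zone by phase it gave Foxo1 -0.111 to 0.167, Inpp5d -0.107 to 0.19 and Akt1 -0.324 to 0.038 in S, and Foxp1 -0.012 to 0.12 and Foxo1 -0.212 to 0.087 in G2M.

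With equal cell numbers (10 per sum) the genes past the threshold numbered 0 for DZ against LZ, 364 for LZtoDZ, 158 for preMem, 217 for prePC and 758 for PC against LZ, 774 for PC against preMem, 225 for S and 402 for G2M against G1, 0 for DZ against LZ in G1, 103 for preMem against LZ in G1 and 0 for zone by phase in G2M. With 2000 UMIs per cell they numbered 581, 1161, 978, 317, 1236, 1334, 1610, 1539, 333, 796 and 0 in the same order. The counts as reported were 1646, 3969, 2653, 1134, 4518, 4259, 3811, 3700, 1160, 1827 and 12. Without immunoglobulin genes DZ against LZ gave 2549, and with at least 20 cells per sum prePC against LZ gave 619. Without the second barcode series PC gave 663 against LZ and 816 against preMem.

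For zone by phase in S, 1 gene as reported, DESeq2 gave 87, no count filter 2, a minimum of 20 cells 4, no immunoglobulin genes 14, no cells with other-type RNA 2, the first barcode series 29 and the robust spread 3. In G2M DESeq2 gave 224, a minimum of 20 cells 28, no immunoglobulin genes 156, no cells with other-type RNA (Cd28 not counted) 28, the first barcode series 111 and the robust spread 81. With DESeq2's size factors the G2M calls were 10 higher and 6 lower, against 6 and 6 with TMM.

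Leaving out 1 mouse at a time gave 755 to 1147 genes for DZ against LZ, 1524 to 2018 for preMem, 605 to 790 for prePC, 2538 to 3203 for S against G1, 478 to 808 for DZ against LZ in G1, 1080 to 1484 for preMem in G1 and 1 to 6 for zone by phase in G2M. Without the replicate block (mouse) the counts were 1303 for DZ against LZ and 947 in G1, and the calls of Inpp5d in G2M (adjusted p = 0.0679), Foxo1 in DZ against LZ in G1 (0.0681) and Foxo3 in preMem against LZ in G1 (0.0568) were lost in edgeR; no other call of the 7 genes changed.
Foxo1 in DZ against LZ also passed in edgeR without cells with other-type RNA (adjusted p = 0.0464). Foxo1 in PC against LZ was at -1.41 with 2000 UMIs per cell (adjusted p = 0.0549). The 10 cells of a prePC sum limit what could be detected there.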
